A study of Mus musculus with 2 samples.

Results

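The bone regions of 2 femoral fracture sites, 1 Control and 1 Loaded, were divided along their long axis into a centre and 2 ends, and gene expression in the centre was compared with that in the ends. The bone region of a section is the set of spots that the study selected as bone on the stained histology image between the 2 inner pins of the external fixator. It held 131 of the 1962 spots under tissue in the Control section and 146 of 1436 in the Loaded section, that is 277 of 3398 spots in all. The positions of the spots were projected on the major principal axis of each region, and the range of the axis was cut in 3 equal parts, so that no expression value entered the choice of the members.

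Both sections came from female bone cell reporter (BCR) mice, in which *Ibsp* and *Acp5* carry fluorescent protein tags (eGFP and mCherry), so that these 2 genes are modified in Control and Loaded alike. The mice received a mid-diaphyseal femoral osteotomy of 0.68 mm at 12 weeks of age, were fitted with an external fixator and were euthanized at 17 weeks of age, 5 weeks after surgery. From week 3 onward and 3 times per week, the Loaded mouse received cyclic mechanical loading through the fixator and the Control mouse received sham-loading without force. Gene expression was measured with the Visium assay for FFPE tissue, in which probe pairs are captured on a grid of spots of 55 μm diameter at a distance of 100 μm and molecules are counted by their unique molecular identifiers (UMIs).

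A healing fracture is bridged by callus bone that osteoblasts deposit and osteoclasts then resorb and remodel. Osteoblasts secrete type I collagen and the noncollagenous proteins of the matrix, and some of them become enclosed in it as osteocytes, which express *Dmp1*, *Mepe* and *Sost*. Osteoclasts dissolve mineral with acid and digest collagen with cathepsin K and matrix metalloproteinases. The femur is surrounded by muscle, and a spot at the bone surface can hold RNA of several of these cell types. How far these programs differ between the centre and the ends of the bone region is the question that the comparison addresses. Where the osteotomy lay along the axis was not determined. The centre can therefore not be equated with the osteotomy gap, nor the ends with the bone beside it.

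The Control region measured 3133 μm along its axis, with 50 spots and 174029 UMIs in the centre and 81 spots and 383230 UMIs in the ends (29 spots in end 1 and 52 in end 2). The Loaded region measured 2771 μm, with 83 spots and 263680 UMIs in the centre and 63 spots and 145340 UMIs in the ends (33 spots in end 1 and 30 in end 2). The median spot held between 1603 UMIs (Loaded end 1) and 3967 UMIs (Control end 2). End 1 is the end that lies at lower array rows on average in each section. The sources used here do not give which end is proximal, so the ends of the 2 sections cannot be matched. No spot barcode was shared between the 2 bone regions.

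**Figure D1:**
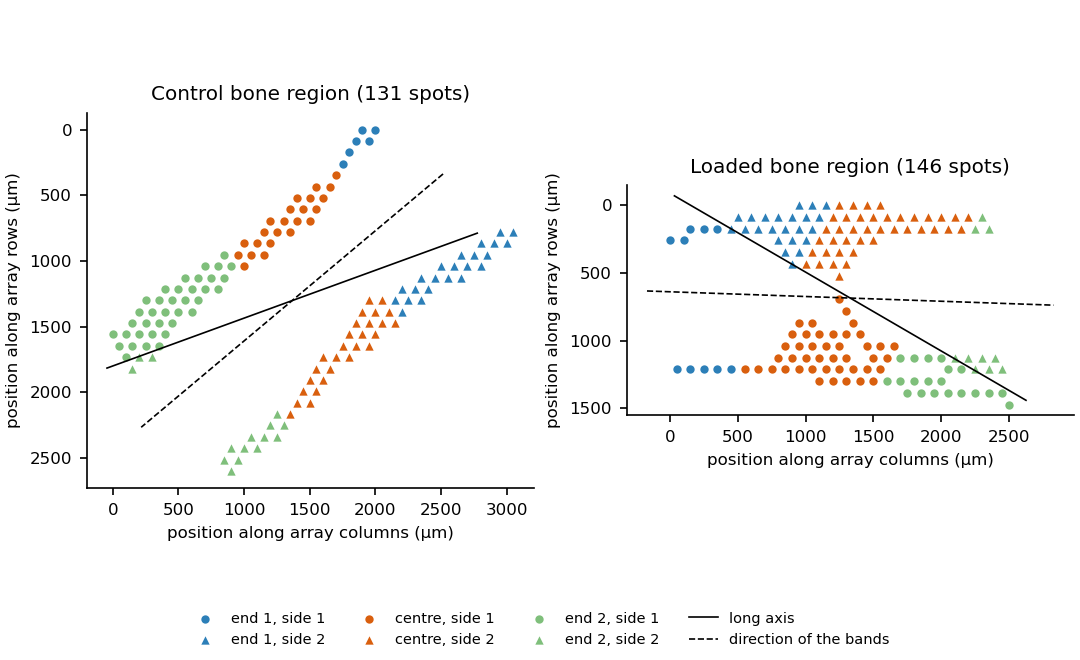
Position (μm) of every bone spot in the Control (left) and Loaded (right) section, colored by end 1, centre and end 2, with circles for side 1 and triangles for side 2. The solid line is the long axis used for the cuts and the dashed line the direction of the 2 bands of spots, from which the long axis was tilted by 19.98° in Control and 28.18° in Loaded.

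The spots of each region lie in 2 bands, taken as the cortices of the shaft, and the long axis is not parallel to them. It deviated by 19.98° in Control and by 28.18° in Loaded, so that the cuts ran obliquely across the bone. End 1 therefore lay mostly on side 2 of the axis (79.3% of its spots in Control and 69.7% in Loaded) and end 2 mostly on side 1 (71.2% and 66.7%). The comparison is hence one along the long axis of the bone region and only approximately one along the shaft. The counts of genes past 2-fold, the list medians and the ratios of single genes were recomputed with the axis set parallel to the bands, a choice made after the data were seen. Comparisons with single ends, and the blocks and 6 lengths described below, kept the long axis. For a view of the variation inside a section, each region was further split into 6 blocks (end 1, centre and end 2, each on side 1 and side 2). The smallest block held 6 spots and 11603 UMIs in Control (end 1, side 1) and 10 spots and 8035 UMIs in Loaded (end 1, side 1).

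The label of the bone regions was checked against bone genes. *Col1a1*, the main chain of type I collagen, had a share of UMIs in the Control bone region of 74.5 per 10000, against 17.8 in the other spots of that section, and of 208 against 36.8 in Loaded. *Ibsp*, bone sialoprotein, was likewise higher in the bone region, with 5.11 against 0.962 in Control and 7.85 against 1.15 in Loaded on the same scale. *Dmp1*, an osteocyte gene, was at 0.502 against 0.509 in Control, so that this marker did not set the Control bone region apart, and at 4.18 against 0.364 in Loaded. *Bglap*, a further bone matrix gene, was only slightly higher in the Control bone region, at 2.26 against 1.76, and was at 26.4 against 3.1 in Loaded. *Acta1*, the actin of skeletal muscle, remained abundant in the bone spots, at 240 per 10000 UMIs in Control and 116 in Loaded, against 320 and 264 in the other spots.

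For each gene, the UMIs of a part were summed and divided by the summed scran size factors of its spots, which gives a level in normalized counts per spot. The log2 ratio of the centre over the ends carries a 95% interval from the exact binomial distribution of the 2 sums, which accounts for counting error alone. Each condition is a single section whose spots are not independent samples, so that differences were not tested and the intervals leave out how much mice vary. A gene was counted as higher or lower in the centre when its level differed at least 2-fold from that of the pooled ends.

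In the Control section, 126 of 2007 genes with at least 50 UMIs were at least 2-fold lower in the centre (6.28%) and 46 were at least 2-fold higher (2.29%). In the Loaded section, 7 of 1507 genes were at least 2-fold lower (0.464%) and 10 were at least 2-fold higher (0.664%). The median log2 ratio over these genes was -0.03 in Control and -0.01 in Loaded. The ratios spread more widely in Control, where 90% of the genes lay between -1.09 and 0.82 on the log2 scale, than in Loaded, where they lay between -0.61 and 0.62. Among the 1310 genes with at least 50 UMIs in both sections, 80 were lower and 21 higher in the Control centre, against 5 and 7 in the Loaded centre. The split between directions depended on the scaling in Control: library totals gave 108 higher and 79 lower genes, and TMM factors gave 27 and 174.

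The 2 ends of a section differed from each other more often than the centre differed from both together. In Control, 304 genes were at least 2-fold higher in end 1 than in end 2 (15.1% of the genes tested) and 463 were at least 2-fold lower (23.1%). In Loaded, these numbers were 156 (10.4%) and 188 (12.5%). The single ends hold fewer UMIs than the pooled ends, and their ratios carry more counting error. Of the 126 genes that were lower in the Control centre than in the pooled ends, 50 were lower than in each end, and *Acp5* alone was at least 2-fold lower than in each. Of the 46 genes that were higher in the Control centre, all 46 were higher than in each end, and 18 were at least 2-fold higher than in each. Most of the lower genes thus marked 1 end rather than a low centre. The higher and lower counts are not comparable here, since pooling treats the directions differently. A centre at least 2-fold above the pooled ends can hardly lie below either end, whereas 1 high end is enough for a 2-fold lower centre. Without the block of end 2 on side 1, the number of lower genes was 46, and without the block of end 1 on side 2, the number of higher genes was 126.

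**Figure D2:**
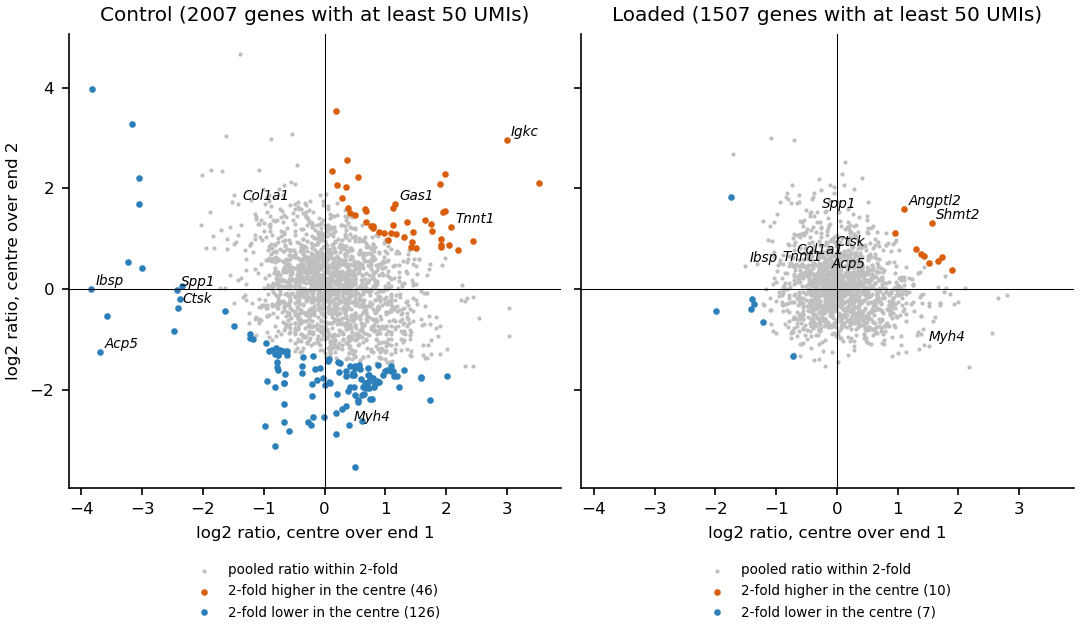
Log2 ratio of the centre over end 1 (horizontal) against that over end 2 (vertical) for each gene with at least 50 UMIs, in Control (left, 2007 genes) and Loaded (right, 1507 genes). Orange and blue points are genes at least 2-fold higher or lower in the centre than in the pooled ends. In Control most blue points lie low against end 2 alone, like *Myh4*, or against end 1 alone, like *Ibsp* and *Ctsk*, and *Acp5* lies past 2-fold against each.

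Osteoclast genes marked end 1 of the Control section. Of the 14 genes in the osteoclast list, 11 had at least 10 UMIs in the Control bone region, and 7 of them were at least 2-fold lower in the centre, where 9.64% of all genes with at least 10 UMIs were. Their median log2 ratio was -1.13, beside 0.05 for all genes with at least 10 UMIs. In Loaded, 10 members had at least 10 UMIs, none of them was at least 2-fold lower (6.21% of all such genes were), 1 was at least 2-fold higher (8.71%), and the median was 0.27. A spot holds several cells, so that fewer cells of a type and less RNA per cell cannot be told apart.

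*Acp5*, which encodes the tartrate-resistant acid phosphatase of osteoclasts (chromosome 9, 22126727 to 22135711, minus strand, GRCm38), had 439 UMIs in end 1, 48 in the centre and 139 in end 2 of the Control region. These sums correspond to 11.7, 0.908 and 2.18 normalized counts per spot. The centre was lower than the pooled ends by a log2 ratio of -2.65 (-3.11 to -2.23), with -3.69 against end 1 and -1.26 against end 2. By blocks, the level was 12.5 normalized counts per spot in end 1 on side 2 and between 0.629 and 2.65 in the other 5 blocks. The high level was thus that of 1 stretch of 1 band. Without that block, the ratio of the centre over the ends was -1.26 for *Acp5*, -0.35 for *Ctsk* and -0.18 for *Ibsp*. In Loaded, *Acp5* was at 3.17, 2.85 and 2.26 normalized counts per spot in end 1, centre and end 2, a log2 ratio of 0.03 (-0.30 to 0.36), and the blocks of the centre and the ends overlapped.

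*Ctsk*, the collagen-degrading cathepsin K (chromosome 3, 95499256 to 95509362, plus strand), followed the same course in Control, at 16.3 normalized counts per spot in end 1, 3.06 in the centre and 3.97 in end 2, for a log2 ratio of -1.48 (-1.73 to -1.23). Its block in end 1 on side 2 reached 17.4 normalized counts per spot, against 2.40 to 5.46 in the others. *Mmp9*, a gelatinase of osteoclasts, was at 6.34, 1.13 and 2.02 normalized counts per spot (log2 ratio -1.67, -2.09 to -1.28). *Mmp13*, a collagenase from the list of osteoclast regulators, was at 6.05, 0.757 and 0.565 (-1.78, -2.30 to -1.30), so that its centre was low against end 1 (-3.00) but not against end 2 (0.42). In Loaded, the centre over the ends was 0.21 (0.01 to 0.42) for *Ctsk*, 0.08 (-0.16 to 0.32) for *Mmp9* and 0.42 (-0.05 to 0.91) for *Mmp13*, and none of these levels differed 2-fold between centre and ends. *Car2*, the carbonic anhydrase that supplies the acid, did not follow the group in Control, with a log2 ratio of -0.14 (-0.66 to 0.37).

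The osteoclast pattern of the Control section was that of side 2. On this side, the median log2 ratio of the list was -1.54 over 10 genes, whereas on side 1 it was 0.64 over 6 genes, that is of the opposite sign. Against end 1 alone the median was -1.97 and against end 2 alone -0.41. The share of muscle genes, which was 10.7% of UMIs in the Control centre, 5.85% in end 1 and 28.2% in end 2, differed between these parts. Among spots in which muscle genes took less than 10% of UMIs (13 spots of the centre and 30 of the ends), the median was -1.92. These end spots all lay on side 2, since no end spot of side 1 had a muscle share below 15.5%. All of end 1 on side 2, with shares up to 8.30%, was kept, so that this value largely repeats the contrast of side 2. With the axis parallel to the bands the median was -1.05, and without the block of end 1 on side 2, or without that of the centre on side 2, it was -0.40. Along 6 equal lengths of the long axis, numbered from end 1, the osteoclast genes took 1.52, 0.942, 0.248, 0.174, 0.224 and 0.264% of UMIs in Control and 0.302, 0.661, 0.641, 0.494, 0.251 and 0.574% in Loaded. The Control share was highest at the outermost length of end 1, and the Loaded share showed no such peak.

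**Figure D3:**
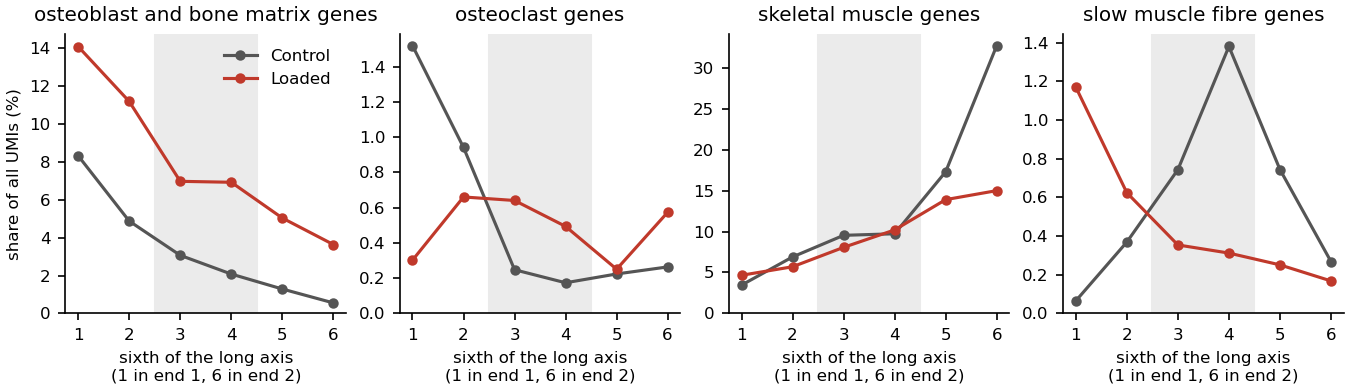
Share of all UMIs (%) taken by the genes of 4 lists in 6 equal lengths of the long axis, from end 1 (1 and 2) through the centre (shaded, 3 and 4) to end 2 (5 and 6), in Control (gray) and Loaded (red), 1 section each. Bone matrix genes take lower and skeletal muscle list genes higher shares toward end 2 in both sections, and the osteoclast and slow fibre genes take different courses in Control and Loaded.

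With both sides together, bone matrix genes formed a gradient along the axis in both sections rather than a difference between centre and ends. The 14 measured genes of the osteoblast and bone matrix list together took 8.33% of UMIs in the first of the 6 lengths of the Control region and 0.556% in the last, and 14.1% and 3.64% in Loaded, with a lower share in each length than in the one before it. On side 1 of Control, however, the share was highest in the centre, at 1.74, 2.67 and 0.672% in end 1, centre and end 2. On side 2 it was 6.65, 2.57 and 1.26%, so that the Control gradient was that of side 2. In Loaded the share fell from end 1 to end 2 on both sides. *Col1a1* (chromosome 11, 94936224 to 94953042, plus strand) was at 64.2, 23.9 and 7.50 normalized counts per spot in end 1, centre and end 2 of Control, and at 106, 63.6 and 41.8 in Loaded. The pooled ratio hid this gradient. It was -0.25 (-0.35 to -0.15) in Control, composed of -1.42 against end 1 and 1.68 against end 2, and -0.32 (-0.39 to -0.26) in Loaded, composed of -0.74 and 0.61. *Col1a2*, the second chain of the same collagen, had pooled log2 ratios of -0.07 (-0.15 to 0.00) and -0.35 (-0.39 to -0.30). *Sparc*, a collagen-binding matrix protein, had 0.18 (0.03 to 0.33) and -0.36 (-0.49 to -0.22).

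Of the 13 bone matrix genes with at least 10 UMIs in Control, 3 were at least 2-fold lower in the centre (9.64% of all such genes were) and none was higher (7.79%), with a median log2 ratio of -0.25. In Loaded, none of 13 passed 2-fold in either direction (6.21% of all such genes were lower and 8.71% higher), and the median was -0.36. The 3 genes of Control were *Ibsp*, *Spp1* and *Alpl*. *Ibsp*, a mineral-binding sialoprotein, was named after its values were seen (chromosome 5, 104299171 to 104311469, plus strand). It was at 6.23 normalized counts per spot in end 1 of Control and at 0.435 and 0.439 in the centre and end 2, for a pooled ratio of -2.57 (-3.25 to -1.96), -3.84 against end 1 and -0.01 against end 2. A single spot held 75 of the 234 *Ibsp* UMIs in end 1. *Spp1*, osteopontin, which is made by osteoblasts and osteoclasts, was at 8.77, 1.63 and 1.65 normalized counts per spot (-1.40, -1.75 to -1.06). Both genes were thus high in end 1 and alike in the centre and end 2. *Alpl*, the tissue-nonspecific alkaline phosphatase, had 4 UMIs in the centre and 20 in the ends (-1.38, -3.39 to 0.19), too few to place it.

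In Loaded, *Ibsp* was highest in end 1 as well, with 5.55, 1.95 and 1.42 normalized counts per spot in end 1, centre and end 2 and a pooled ratio of -0.98 (-1.30 to -0.66), which was 0.18 without the block of end 1 on side 2. *Spp1* was at 12.5, 9.98 and 3.45 normalized counts per spot, low in end 2 only, with a pooled ratio of 0.19 (0.01 to 0.37). *Bglap*, osteocalcin, whose near-identical copy *Bglap2* may share its probes, differed in sign between the sections. It was at 0.346, 1.15 and 0.816 normalized counts per spot in Control (0.85, 0.32 to 1.37) and at 11.8, 7.72 and 9.23 in Loaded (-0.48, -0.65 to -0.30). The levels of the Loaded blocks, 5.25 to 16.8 normalized counts per spot, all lay above the highest Control block at 2.32. *Runx2*, the transcription factor of the osteoblast lineage, had log2 ratios of -0.48 (-1.44 to 0.41) in Control and -0.78 (-1.39 to -0.17) in Loaded.

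With both bands together, the gradient of bone matrix genes was also present along their direction. With 3 equal lengths of the shaft direction, the list took 6.18, 2.71 and 0.935% of UMIs in Control and 12.1, 7.92 and 3.81% in Loaded. With the axis along the bands, the median log2 ratio of the list was -0.17 in Control and 0.27 in Loaded, so that its sign in Loaded depended on the axis.

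With both sides together, tendon and periosteum genes had the same order in Control, with 1.55% of UMIs in the first length and 0.0767% in the last, and took between 0.103% and 0.250% in Loaded. This order was that of side 2 of Control, at 1.39, 0.617 and 0.336% in end 1, centre and end 2. On side 1 the share was highest in the centre, at 0.112, 0.293 and 0.0943%. *Comp*, a matrix protein of cartilage and tendon, was at 12.1, 3.31 and 0.643 normalized counts per spot in end 1, centre and end 2 of Control and at 2.38, 1.73 and 1.36 in Loaded. *Fmod*, fibromodulin, was at 4.82, 1.31 and 0.455 in Control and at 1.15, 1.30 and 1.36 in Loaded. With both sides together, *Comp* and *Fmod* were intermediate in the Control centre. Cartilage itself was little represented, with 3 of 8 list genes at 10 UMIs or more in Control and 2 in Loaded. *Col2a1*, the collagen of cartilage, had 4 UMIs in the centre and 16 in the ends of Control, and 24 and 9 in Loaded. *Acan*, the cartilage proteoglycan, had 22 UMIs in end 1 of Control, 1 in end 2 and 0 in the centre, which bounds the log2 ratio at -2.0 or lower when the centre is set to a floor of 3 UMIs.

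With both sides together, genes for collagen folding and secretion formed the same gradient as the bone matrix genes. They took 0.643% of UMIs in the first of the 6 lengths of Control and 0.169% in the last, and 0.703% and 0.301% in Loaded, with a lower share in each length than in the one before it. Against end 1 and end 2, their median log2 ratios were -0.23 and 0.64 in Control and -0.21 and 0.41 in Loaded. In the pooled ratio, all 16 members had at least 10 UMIs in both sections, and none passed 2-fold in either. Their log2 ratios ranged from -0.12 to 0.66 in Control, with a median of 0.25, and from -0.68 to 0.60 in Loaded, with a median of -0.06.

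Osteocyte genes were sparse in Control and placed mostly by the Loaded section. Of the 10 genes in the list, 6 reached 10 UMIs in Control, 2 of them at least 2-fold lower in the centre, where 9.64% of all such genes were. In Loaded, 9 reached 10 UMIs, 2 of them at least 2-fold higher (8.71% of all such genes), with a median of 0.00. *Dmp1*, a phosphoprotein of the mineralizing matrix, had 5 UMIs in the centre and 23 in the ends of Control (-1.26, -3.02 to 0.16) and was at 1.74, 1.34 and 1.13 normalized counts per spot in end 1, centre and end 2 of Loaded (-0.16, -0.62 to 0.31). *Mepe*, a matrix phosphoglycoprotein of mature osteocytes, had 36 UMIs in the Loaded centre and 10 in the ends (0.95, -0.09 to 2.13), and 1 UMI in the centre and 2 in the ends of Control, so that no ratio is given there. The Loaded intervals of both genes include 0.

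*Sost*, the Wnt antagonist sclerostin of mature osteocytes (chromosome 11, 101962458 to 101967015, minus strand), was highest in end 2 of the Loaded region, opposite to the collagens. It had 3 UMIs in end 1, 43 in the centre and 28 in end 2, at 0.119, 0.538 and 1.59 normalized counts per spot. The pooled ratio of -0.43 (-1.13 to 0.29) was composed of 2.18 against end 1 and -1.56 against end 2. In Control, it had 15 UMIs in end 2, 3 in the centre and 1 in end 1. In both sections, end 2 was thus the end with most *Sost* and least *Col1a1*.

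Muscle genes ran against the bone genes. The skeletal muscle list holds fast fibre genes together with general muscle genes such as *Acta1*. With both sides together, its genes took 3.46% of UMIs in the first length of the Control region and 32.7% in the last. In Loaded they took 4.66% and 15.0%, and in both sections the share was higher in each length than in the one before it. Along the bands, their share was 6, 10.5 and 25.7% in Control and 7.98, 7.90 and 13.8% in Loaded. All 22 members had at least 10 UMIs, and 16 of them were at least 2-fold lower in the Control centre (9.64% of all genes with at least 10 UMIs were) and none in the Loaded centre (6.21%), with medians of -1.31 and -0.09. The members did not all move together, since 3 had a ratio above 0 in Control, the highest at 0.76. *Myh4*, the fast myosin heavy chain of type IIb fibres (chromosome 11, 67238029 to 67260446, plus strand), was at 21, 27.9 and 182 normalized counts per spot in end 1, centre and end 2 of Control (-2.13, -2.21 to -2.06) and at 13.2, 35.8 and 77.4 in Loaded (-0.15, -0.23 to -0.06). *Acta1* followed with -1.09 (-1.16 to -1.03) and -0.09 (-0.17 to 0.00).

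End 2 on side 1 carried the Control result for muscle. There, the genes of the skeletal muscle and slow muscle fibre lists together took 32.0% of UMIs, against 4.59 to 17.9% in the other 5 blocks. Without this block, the median of the skeletal muscle list was 0.31, that is above 0. Within spots with a muscle share below 10% it was 0.64. That cut is made on these same genes and keeps no end spot of side 1, so that its value cannot place the difference. Against end 1 alone the centre was higher, by a median log2 ratio of 0.72 in Control and likewise of 0.72 in Loaded. In Loaded, both lists together took 6.25% of UMIs in end 1, 9.21% in the centre and 14.6% in end 2. The share of muscle RNA moves along the same axis as the bone genes in both sections, and its part in their gradients was not tested.

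Slow fibre genes were distributed differently from the skeletal muscle list as a whole. The slow muscle fibre list was highest in the middle of the Control region, with 0.0649, 0.369, 0.743, 1.38, 0.744 and 0.268% of UMIs in the 6 lengths, and had its highest share in the first length of Loaded (1.17%) and its lowest in the last (0.168%). Of its 6 members, 5 were at least 2-fold higher in the Control centre, where 7.79% of all genes with at least 10 UMIs were, and 1 was at least 2-fold lower in the Loaded centre (6.21%). The medians were 1.25 and -0.51. *Tnnt1*, the slow skeletal troponin T (chromosome 7, 4504570 to 4516382, minus strand), was at 1.97, 8.36 and 3.58 normalized counts per spot in Control (1.49, 1.27 to 1.70) and at 5.59, 2.85 and 2.04 in Loaded (-0.53, -0.82 to -0.24). *Myh7*, the slow myosin heavy chain, had log2 ratios of 1.16 (1.00 to 1.32) and -0.61 (-0.84 to -0.37). The high Control centre was that of side 2, where *Tnnt1* was at 10.1 normalized counts per spot, against 2.25 in the centre of side 1 and 5.79 in the next highest block, so that the blocks of centre and ends overlapped. On side 1 the median of the list was -0.12, and without the centre block of side 2 it was -0.54.

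**Figure D4:**
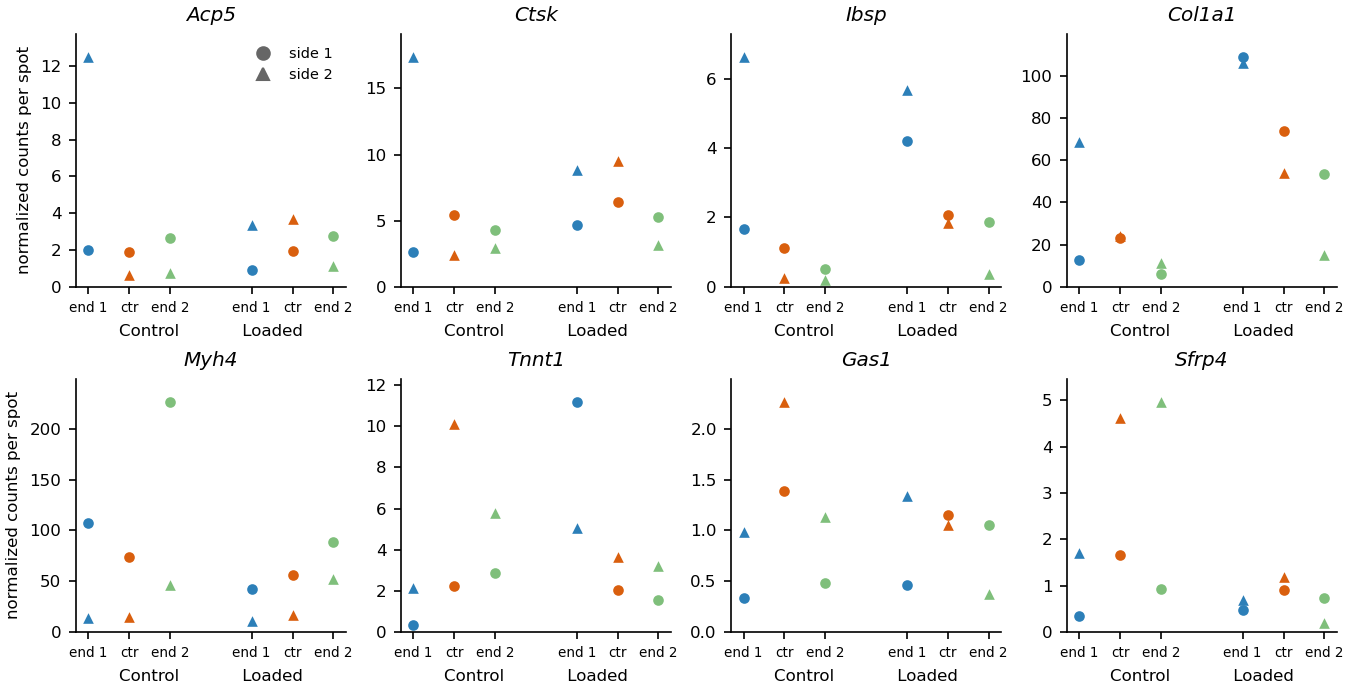
Normalized counts per spot of 8 genes in the 6 blocks of each section, with end 1 in blue, centre in orange, end 2 in green, circles for side 1 and triangles for side 2, 1 section per condition. *Acp5*, *Ctsk* and *Ibsp* are high in 1 end block of Control, and *Col1a1* is lower and *Myh4* higher toward end 2. The 2 centre blocks of *Gas1* lie above all end blocks in Control, by which pattern it was selected, but not in Loaded.

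Genes whose 2 centre blocks both lay outside the range of the end blocks were few. Both centre blocks lay above all 4 end blocks for 59 genes in Control (2.94%) and 65 in Loaded (4.31%), and below all of them for 49 (2.44%) and 44 (2.92%). Of the genes at least 2-fold higher in the centre, 11 of 46 in Control and 5 of 10 in Loaded had both centre blocks above the end blocks, and of those at least 2-fold lower, 10 of 126 and 1 of 7 had both below.

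The highest such ratios in the Control centre were those of *Igkc* and *Igha*, the constant regions of the immunoglobulin kappa light chain and alpha heavy chain, at 2.97 (2.41 to 3.57) and 2.48 (2.03 to 2.94). Much of their height came from 1 spot. It held 101 of the 135 *Igkc* UMIs of the centre, and a single spot likewise held 107 of its 163 *Igha* UMIs. Without the spot richest in the gene, the ratios were lower but still past 2-fold, at 1.06 (0.33 to 1.80) and 1.02 (0.46 to 1.58). The remaining UMIs were spread, and 23 and 28 of the 50 centre spots held at least 1 UMI of *Igkc* and *Igha*. With 3 parts of equal spot number in place of equal length they were -1.04 and -0.92. In Loaded, the *Igkc* ratio was 0.38 (-0.11 to 0.89).

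*Gas1*, a membrane protein that modulates hedgehog signaling (chromosome 13, 60174405 to 60177365, minus strand), was spread over the Control centre, with 110 UMIs in 37 of 50 spots. Its level was 0.932, 2.08 and 0.643 normalized counts per spot in end 1, centre and end 2 (1.47, 1.04 to 1.91). The ratios on side 1 and side 2 were 1.55 and 1.14. *Gas1* was selected for centre blocks above all end blocks in Control, so that a higher centre on both sides follows from the selection. In Loaded, it was at 1.27, 1.1 and 0.849, without a difference in the centre (0.01, -0.52 to 0.55). *Myh3*, the embryonic myosin heavy chain that muscle expresses when it develops or regenerates (chromosome 11, 67078300 to 67102291, plus strand), had 61 UMIs in the Control centre and 26 in the ends (2.17, 1.48 to 2.89). In Loaded, it had 9 UMIs in the centre and 7 in the ends.

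Further genes with both centre blocks above the ends in Control, taken by the rule of the highest ratios, were *Gabbr1* (1.41), *Hnrnpdl* (1.35), *Olfml2b* (1.17) and *Slc1a5* (1.05). The lowest were *Rex1bd* (-1.55), *Mettl22* (-1.52), *Use1* (-1.35), *March6* (-1.14), *Kif13a* (-1.10), *Spcs3* (-1.08), *Samm50* (-1.06) and *Asb8* (-1.06). These lowest ratios rest on few UMIs in the centre, from 8 for *Rex1bd* and *Mettl22* to 24 for *March6*. None of the higher or lower genes named here belongs to one of the gene lists.

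Most myelin genes were higher in the Control centre than in the pooled ends. The Schwann cell list had 6 of 8 members with at least 10 UMIs, 5 of which were at least 2-fold higher, where 7.79% of all genes with at least 10 UMIs were, with a median of 1.59. The result was mostly that of side 2: the median was 1.26 there and 0.25 on side 1, and without the centre block of side 2 it was 0.40. The blocks overlapped, since the list took 0.0844% of UMIs in end 2 on side 2 and 0.0501% in the centre on side 1. *Mbp*, myelin basic protein, had 58 UMIs in the centre, 13 in end 1 and 27 in end 2 (1.47, 0.87 to 2.09). *Pmp22*, a further myelin protein that fibroblasts also express, had a ratio of 1.18 (0.73 to 1.63), which was -0.34 without the centre block of side 2. In Loaded, 3 members reached 10 UMIs, all with a ratio above 0 and 1 of them at least 2-fold higher (8.71% of all such genes), and *Mbp* had 22 UMIs in the centre and 6 in the ends (0.98, -0.37 to 2.57).

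*Sfrp4*, a secreted antagonist of Wnt signaling (chromosome 13, 19623104 to 19632994, plus strand), was higher in the centre of both sections. It was at 1.60, 3.97 and 1.93 normalized counts per spot in end 1, centre and end 2 of Control (1.14, 0.84 to 1.43) and at 0.674, 1.04 and 0.566 in Loaded (0.72, 0.08 to 1.41). In Loaded, both centre blocks (0.894 and 1.18 normalized counts per spot) lay above the 4 end blocks (0.188 to 0.730), whereas in Control the block of end 2 on side 2 (4.97) exceeded both centre blocks (1.65 and 4.62). Without the block of the Control centre on side 2, the Control ratio was -0.13. Among the Wnt and BMP antagonists as a list, 2 of 8 members were at least 2-fold higher and 1 lower in the Control centre, where 7.79% and 9.64% of all genes with at least 10 UMIs were. In the Loaded centre, none of 7 was higher and 2 were lower, beside 8.71% and 6.21% of all such genes. The medians were 0.59 in Control and -0.31 in Loaded. On side 1 and side 2, over fewer genes, they were 0.46 and -0.09 in Control and 0.37 and 0.06 in Loaded. Against end 1 and end 2, they were 0.31 and 1.17 in Control and -0.49 and 0.32 in Loaded.

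In the Loaded section, *Shmt2* and *Angptl2* were the only genes with at least 50 UMIs that were at least 2-fold higher in the centre than in each end. *Shmt2*, a mitochondrial enzyme of serine and glycine metabolism (chromosome 10, 127517123 to 127522444, minus strand), had 56 UMIs in the centre, 6 in end 1 and 5 in end 2 (1.45, 0.50 to 2.53). *Angptl2*, a secreted angiopoietin-like protein (chromosome 2, 33216069 to 33247717, plus strand), had 41, 6 and 3 UMIs (1.29, 0.23 to 2.52). In Control their ratios were 0.44 (-0.32 to 1.19) and -0.05 (-0.61 to 0.50). *Slpi*, a secreted inhibitor of leukocyte proteases, had 66 UMIs in the Loaded centre and 17 in the ends (1.06, 0.27 to 1.92) and 4 and 23 in Control (-1.59, -3.58 to -0.04). The other genes named by the rule in Loaded were *Epc1* (1.07), *Ccdc85b* (1.07), *Copg1* (0.97), *Ccdc28b* (0.91) and *Clk3* (0.89) on the higher side. The lowest were *Ash1l* (-1.0), *Alpk3* (-0.97), *Nipsnap2* (-0.96), *Dtx3* (-0.96), *Sf3a1* (-0.85), *Arhgef25* (-0.81), *Bcas2* (-0.74) and *St3gal1* (-0.72). None of these genes belongs to one of the gene lists.

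Load-responsive genes, a list of early response, matricellular and other genes linked to mechanical stimuli, had ratios above 0 for 9 of 10 members in Control (median 0.34). In Loaded, 4 of 12 members had a ratio above 0 (median -0.46). Over all genes with at least 10 UMIs, 52.8% in Control and 50.7% in Loaded had a ratio above 0. The Control median was -0.15 against end 1 and 0.65 against end 2, so that the list was not higher in the centre than in each end. The Loaded median was -0.29 against end 1 and 0.10 against end 2, so that the list was not lower in the centre than in each end either. By side, the Loaded median was 0.24 on side 1 and -0.83 on side 2. The study euthanized the mice 10 hours after the last loading session, so that these ratios hold for that time and earlier responses were not measured. In Control, 1 of the 10 was at least 2-fold higher in the centre (7.79% of all genes with at least 10 UMIs) and none lower (9.64%). In Loaded, 1 of the 12 was higher (8.71%) and 2 were lower (6.21%), so that few members passed 2-fold in either section. *Ccn2*, connective tissue growth factor, was at 8.02, 4.79 and 1.60 normalized counts per spot in end 1, centre and end 2 of Control (0.27, 0.03 to 0.50). In Loaded it had 36 UMIs in the centre and 5 in the ends (1.95, 0.59 to 3.66), with both centre blocks above the end blocks. Its Loaded total is below the minimum of 50 UMIs that a gene needed to be counted among those higher or lower. *Jun* had log2 ratios of 0.50 (0.04 to 0.95) and -0.34 (-0.98 to 0.31), and *Gja1*, the gap junction protein of osteocytes, of -0.85 (-1.87 to 0.06) and -0.65 (-1.08 to -0.21).

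When the 2 sections were set against each other, the ratio of centre over ends was at least 2-fold higher in Loaded than in Control for 104 of 1310 genes (7.94%) and at least 2-fold lower for 47 (3.59%). Library totals gave 67 and 81 genes, and TMM factors gave 169 and 26. None of the 21 higher and 80 lower genes of the Control centre that were tested in Loaded passed 2-fold in the same direction there. Only 7 higher and 5 lower genes of all 1310 did so in Loaded, so that an overlap was unlikely in any case. Of the 80 lower genes, 51 had a ratio below 0 in Loaded, with a median of -0.13, and of the 21 higher genes, 11 had a ratio above 0, with a median of 0.01. Among all 1507 Loaded genes with at least 50 UMIs, 49.4% had a ratio above 0. Conversely, none of the 7 higher and 5 lower genes of the Loaded centre that were tested in Control passed 2-fold in the same direction, where 21 and 80 of all 1310 genes did.

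**Figure D5:**
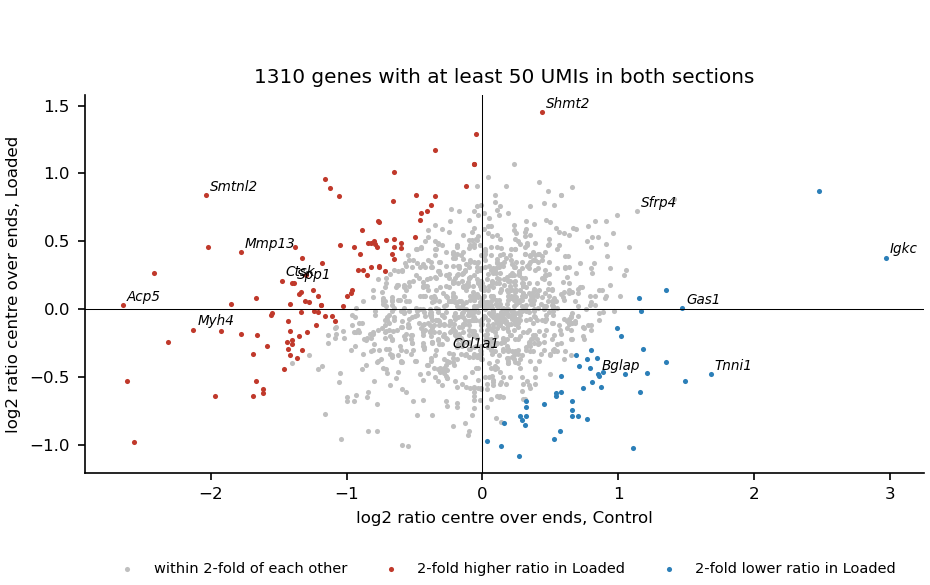
Log2 ratio of centre over ends in Control (horizontal) against Loaded (vertical) for the 1310 genes with at least 50 UMIs in both sections. Red and blue points are the 104 and 47 genes whose ratio was at least 2-fold higher or lower in Loaded than in Control. The cloud is wider along the Control axis, and *Acp5*, *Myh4* and *Tnni1* lie near 0 or within 2-fold on the Loaded axis.

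The genes whose ratio was highest in Loaded relative to Control were *Smtnl2* (2.88), *Mt3* (2.69), *Acp5* (2.68), *Sar1b* (2.49), *Mmp13* (2.20) and *Rtn2* (2.12). For *Acp5* the exact interval of the difference was 2.13 to 3.24, and for *Ctsk*, *Mmp9* and *Spp1* the differences were 1.69 (1.37 to 2.01), 1.75 (1.28 to 2.23) and 1.58 (1.20 to 1.98). *Mt3*, a metallothionein, had the distribution of *Ibsp* in Control, with 68 UMIs in end 1, 8 in the centre and 14 in end 2. The lowest differences were those of *Igkc* (-2.59), *Tnni1* (-2.17), *Tnnc1* (-2.12), *Tnnt1* (-2.02), *Myh7* (-1.77) and *Myl3* (-1.73), of which all but *Igkc* belong to slow fibres. The *Igkc* value rests largely on 1 spot, which held 101 of its 135 UMIs in the Control centre. Apart from these lowest differences, *Gas1* (-1.47, -2.16 to -0.76) and *Bglap* (-1.32, -1.88 to -0.77) were relatively higher in the Control centre, and *Col1a1* differed by -0.07 (-0.19 to 0.04). Condition and individual cannot be told apart in these differences, since each condition is 1 section of 1 mouse.

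The remaining lists had medians between -1.06 and 0.54. Erythroid genes had medians of 0.26 in both sections with no member past 2-fold. Macrophage genes had medians of 0.54 and -0.01, with *C1qa*, a complement component, at 0.74 (0.27 to 1.20) and -0.13 (-0.64 to 0.40). Fibrous stroma genes had medians of 0.29 and -0.05, with 2 of 12 members at least 2-fold higher in the Control centre (7.79% of all genes with at least 10 UMIs were), and *Dcn*, decorin, at 0.88 (0.62 to 1.14) and 0.14 (-0.28 to 0.58). The medians in Control and Loaded were -0.20 and 0.20 for granulocytes, 0.35 and -0.01 for endothelium, -0.09 and -0.02 for adipocytes, 0.30 and 0.29 for proliferation, -0.06 and 0.22 for mineralization, -0.80 and -0.20 for osteoclast regulators, and 0.49 and 0.22 for B and plasma cells. For cartilage they were -1.06 over 3 genes and 0.17 over 2 genes, and for tendon and periosteum -0.36 and -0.02.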

How the data were processed

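Visium FFPE spatial gene expression was measured in 1 Control and 1 Loaded section of mouse femur. The authors aligned and counted the reads with SpaceRanger 2.0.0, and the submitters' processing notes name mm10. The deposited values are raw UMI counts of 19465 genes per spot under tissue, without normalization. Bone spots were taken from the barcodes of the study, and groups from the labels. Gene coordinates come from GENCODE M21 (GRCm38), in which 19451 gene identifiers (99.9%) were found. Positions were computed from array columns at 50 μm and rows at 86.6 μm.

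Size factors were computed over all 277 bone spots with scran 1.30.0 (R 4.3.3), UMI sums were divided by summed size factors, and a sum of 0 was set to 3 UMIs as a bound. The study compared spots with DESeq2. No such test was run here. Ratios carry exact binomial 95% intervals and differences between sections exact conditional intervals of the odds ratio (Python 3.11.15, numpy 2.4.6, scipy 1.17.1, pandas 2.3.3), both for counting error only. The computations were tested on simulated counts, and figures were drawn with matplotlib 3.10.9. Counts of genes required 50 UMIs in the section, and list members 10. Of 237 genes in 21 lists, 232 were found. The members, the lists and the rules were chosen with earlier results of these data known, and many list genes are named in the study.

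Named genes are, per section, the 8 highest and 8 lowest ratios among genes whose centre blocks lay apart from the end blocks, the 6 highest and 6 lowest differences between sections, and up to 4 members of each list by UMIs plus those named in the study, of which the text gives a selection. Genes at least 2-fold from each end, *Ibsp*, and the counts by spot were chosen after the values were seen. As alternatives, the scaling was changed (library totals; TMM by edgeR 4.0.16; totals after removal of 20 abundant genes or of muscle genes; scran by section; spots weighted equally), as were the axis, the cuts, the minimum counts and the spots used (away from the cuts by 100 μm, muscle share below 10%, each end, each side, each block removed). Section images were not used here, and 1 list gene is not reported by name.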

Additional observations from a re-analysis of the deposited data

Results flagged for a closer look

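The osteoclast list and the slow muscle fibre list had medians of opposite sign in the 2 sections on the long axis. The osteoclast median was -1.13 in Control and 0.27 in Loaded, a difference of 1.40 on the log2 scale. The slow muscle fibre median was 1.25 in Control and -0.51 in Loaded, a difference of -1.76. In Control and Loaded, the side 2 medians were -1.54 and 0.29 for osteoclast genes and 1.31 and -0.53 for slow fibre genes. On side 1 the signs were alike, at 0.64 and 0.44 for osteoclast genes and -0.12 and -0.37 for slow fibre genes. They were also alike for osteoclast genes against end 1 alone (-1.97 and -0.07) and for slow fibre genes against end 2 alone (0.95 and 0.40). *Bcas2*, a subunit of the spliceosome, had both centre blocks above all end blocks in Control (0.520 and 0.653 normalized counts per spot against 0 to 0.460) and below them in Loaded (0.306 and 0.417 against 0.466 to 0.938), with ratios that differed by -1.40. *Slc1a5*, a glutamine transporter, showed the same order, with 1.99 and 1.06 against 0.332 to 0.782 in Control and 0.791 and 0.883 against 0.938 to 2.33 in Loaded, a difference of -1.53. None of these differences was tested, since each condition is 1 section, and the gene pair was picked out among all genes by this pattern. In end 1, centre and end 2, *Bcas2* had 15, 33 and 25 UMIs in Control and 15, 29 and 11 in Loaded. *Slc1a5* had 28, 67 and 34 in Control and 31, 67 and 19 in Loaded, so that single blocks rest on few UMIs. Both centre blocks lay above the end blocks for 2.94% of genes in Control and below them for 2.92% in Loaded. Among 1310 genes, a few with both patterns would be found even if the sections were unrelated.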

How the results depend on the processing

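No paired analysis was possible because each condition is a single section and no test was run. For the gene counts and the medians of the bone matrix, osteoclast and 2 muscle lists, 167 values under other settings stayed within 1.5 times the count or within the counting interval of the list, 103 moved further and 10 changed sign. Of the values of single genes and further lists, 2984 stayed, 527 moved and 83 changed sign. Scaling by library totals shifted the log2 ratio of every gene by 0.20 in Control and 0.04 in Loaded, and TMM factors by -0.15 and 0.07. The axis along the bands, alone or by band, was added after the data were seen. Every gene count and every median of these 4 lists that moved or changed sign follows, and of the single genes and further lists those that changed sign from beyond 2-fold, each as a count of genes past 2-fold or a log2 ratio of centre over ends, and the cause was not tested.

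With library totals in place of scran factors, the gene counts were 108 higher, 79 lower in Control and 3 lower in Loaded and 67 higher, 81 lower in the difference, and list medians were skeletal muscle -1.11 in Control. With TMM factors, the gene counts were 27 higher in Control and 2 lower in Loaded and 169 higher, 26 lower in the difference, and list medians were skeletal muscle -1.46 in Control. With totals without the 20 most abundant genes, the gene counts were 3 lower in Loaded. With totals without the muscle genes, the gene counts were 3 lower in Loaded. With scran factors of each section alone, the gene counts were 3 lower in Loaded. With equal weight for every spot, the gene counts were 26 higher, 12 lower in Loaded, and list medians were skeletal muscle -0.94, slow muscle fibre 0.60 in Control. With the array row direction as the axis, which runs obliquely to the bands in Control (85 centre spots) and across them in Loaded (12 centre spots) and so compares other spots, the gene counts were 133 higher, 51 lower in Control and 84 higher, 184 lower in Loaded and 271 lower in the difference, and list medians were osteoclast 0.51, cartilage 1.28, skeletal muscle 1.11, slow muscle fibre -1.22, Schwann cell -1.01 in Control and osteoblast and bone matrix -0.88 in Loaded, and gene ratios were *Ibsp* 0.98, *Acp5* 1.20, *Dmp1* 0.48, *Acta1* 0.94, *Myh4* 1.64, *Ctsk* 0.61, *Mmp9* 0.51, *Mmp13* 0.81, *Spp1* 1.44, *Alpl* 0.19, *Acan* 3.06, *Tnnt1* -1.0, *Myh7* -1.51, *Gas1* -0.22, *Myh3* -0.24, *Gabbr1* -1.0, *Hnrnpdl* -0.91, *Olfml2b* -0.17, *Slc1a5* -0.29, *Rex1bd* 1.87, *Mettl22* 0.67, *Use1* 0.16, *March6* 0.08, *Kif13a* 0.30, *Samm50* 0.13, *Mbp* -1.10, *Pmp22* -0.85, *Sfrp4* -1.36, *Clk3* 0.98, *Nipsnap2* 0.98, *Tnni1* -1.19, *Smtnl2* 1.69, *Mt3* 1.17, *Sar1b* 1.24, *Rtn2* 0.87, *Tnnc1* -1.25, *Myl3* -1.04 in Control and *Ccdc85b* -0.49, *Ccn2* -0.51 in Loaded. With 3 parts of equal spot number, the gene counts were 17 higher, 17 lower in Loaded, and list medians were skeletal muscle -1.13 in Control, and gene ratios were *Igkc* -1.04, *Igha* -0.92 in Control. With a wider centre and narrower ends (the middle 50% of the axis), the gene counts were 106 higher in Control and 46 higher, 13 lower in Loaded and 78 lower in the difference, and list medians were skeletal muscle -1.59 in Control and skeletal muscle -0.25 in Loaded. With only spots of a muscle share below 10%, the gene counts were 41 lower in Control and 17 higher, 15 lower in Loaded and 28 higher in the difference, and list medians were skeletal muscle 0.64 in Control and slow muscle fibre -1.02 in Loaded, and gene ratios were *Acta1* 0.94, *Mettl22* 0.08, *Nipsnap2* 0.58, *Sar1b* 0.15, *Rtn2* 0.08 in Control. Against end 1 alone, the gene counts were 95 higher, 67 lower in Control and 55 higher, 20 lower in Loaded and 51 higher, 78 lower in the difference, and list medians were osteoblast and bone matrix -1.29, skeletal muscle 0.72, slow muscle fibre 2.03 in Control and skeletal muscle 0.72, slow muscle fibre -0.95 in Loaded, and gene ratios were *Acta1* 1.13, *Myh4* 0.41, *Nipsnap2* 0.26, *Rtn2* 0.35 in Control. Against end 2 alone, the gene counts were 120 higher, 216 lower in Control and 66 higher, 25 lower in Loaded, and list medians were osteoblast and bone matrix 0.44, cartilage 0.52, skeletal muscle -1.84, slow muscle fibre 0.95 in Control and osteoblast and bone matrix 0.29, skeletal muscle -0.74, slow muscle fibre 0.40 in Loaded, and gene ratios were *Mmp13* 0.42 in Control. On side 1 alone, the gene counts were 199 lower in Control and 50 higher in the difference, and list medians were osteoblast and bone matrix 1.21, osteoclast 0.64, cartilage 1.15, slow muscle fibre -0.12 in Control and osteoblast and bone matrix 0.06, skeletal muscle -0.51 in Loaded, and gene ratios were *Ibsp* 0.93, *Ctsk* 0.37, *Mmp9* 0.29, *Mmp13* 1.21, *Spp1* 0.19, *Col2a1* 0.27, *Tnnt1* -0.26, *Mt3* 0.44, *Myl3* -1.06 in Control. On side 2 alone, the gene counts were 44 lower in Control and 11 lower in Loaded and 26 higher, 30 lower in the difference, and list medians were osteoblast and bone matrix -0.92, skeletal muscle 0.26 in Control and skeletal muscle 0.14 in Loaded, and gene ratios were *Acta1* 0.45, *Nipsnap2* 0.41, *Rtn2* 0.24 in Control. With a minimum of 30 UMIs, the gene counts were 120 higher, 224 lower in Control and 73 higher, 42 lower in Loaded and 226 higher, 133 lower in the difference. With a minimum of 100 UMIs, the gene counts were 19 higher, 71 lower in Control and 0 higher, 1 lower in Loaded and 42 higher, 16 lower in the difference. With the axis along the bands, the gene counts were 34 higher, 18 lower in Loaded, and list medians were skeletal muscle -1.13, slow muscle fibre 0.87 in Control and osteoblast and bone matrix 0.27, skeletal muscle -0.66 in Loaded. Along the bands on the first band alone, the gene counts were 33 lower in Control and 26 higher, 18 lower in Loaded and 57 higher in the difference, and list medians were skeletal muscle 0.62, slow muscle fibre 0.78 in Control and osteoblast and bone matrix 0.14, osteoclast 1.33, skeletal muscle -0.47, slow muscle fibre -1.11 in Loaded, and gene ratios were *Acta1* 0.73, *Myh4* 0.10, *Rex1bd* 0.09, *Sfrp4* -0.11, *Nipsnap2* 1.06, *Smtnl2* 0.19, *Rtn2* 0.49 in Control and *Epc1* -0.18, *Ccdc85b* -0.11 in Loaded. Along the bands on the second band alone, the gene counts were 12 lower in Loaded and 47 higher in the difference, and list medians were osteoblast and bone matrix 1.08, osteoclast 0.35, cartilage 1.0, slow muscle fibre 0.13 in Control and osteoblast and bone matrix 0.30, skeletal muscle -0.51, slow muscle fibre 0.27 in Loaded, and gene ratios were *Ibsp* 0.71, *Ctsk* 0.10, *Mmp13* 1.15, *Spp1* 0.37, *Mt3* 0.28, *Myl3* -0.66 in Control.

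Leaving out each of the 6 blocks in turn gave gene counts of 4 to 22 lower, 6 to 52 higher in Loaded and 25 to 126 higher, 46 to 211 lower in Control and 48 to 111 higher in the difference, list medians of cartilage -1.65 to 0.40, skeletal muscle -1.80 to 0.31, slow muscle fibre -0.54 to 1.74, osteoblast and bone matrix -1.02 to 0.27, Schwann cell 0.40 to 1.97, osteoclast -1.57 to -0.40 in Control and osteoblast and bone matrix -0.56 to 0.13, skeletal muscle -0.68 to 0.37, slow muscle fibre -0.85 to -0.16 in Loaded and gene ratios of *Mmp13* -2.53 to 0.14, *Sost* -2.71 to 0.13, *Col2a1* -2.71 to 0.72, *Acan* -2.86 to 0.19, *Tnnt1* -0.40 to 1.77, *Myh7* -0.58 to 1.89, *Pmp22* -0.34 to 1.54, *Sfrp4* -0.13 to 1.71, *Tnni1* -0.07 to 1.99, *Tnnc1* -0.50 to 1.60, *Myl3* -1.07 to 1.72, *Acta1* -1.61 to 0.47, *Nipsnap2* -1.72 to 0.05, *Rtn2* -1.62 to 0.34, *Comp* -1.42 to 2.26, *Fmod* -1.47 to 1.49, *Col1a1* -1.02 to 1.63, *Col1a2* -0.75 to 1.29, *Sparc* -0.54 to 1.64, *Bglap* 0.38 to 1.70, *Ccn2* -0.88 to 1.65, *Ibsp* -3.42 to -0.18, *Ctsk* -2.0 to -0.35, *Acp5* -3.22 to -1.26, *C1qa* -0.71 to 1.04 in Control and *Ibsp* -1.25 to 0.18, *Myh7* -1.06 to 0.46, *Gja1* -0.77 to 0.05 in Loaded. Both *Acan* values of this range are upper bounds from the floor of 3 UMIs, since the Control centre held 0 *Acan* UMIs, so that 0.19 is not a change of sign. Fewer genes were counted with 100 UMIs and more with 30 by construction. A gene with 50 UMIs has a wide counting interval, so that genes of low count can pass or miss 2-fold by counting error, and neither this nor the variation between mice is resolved by 1 section per condition.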
